A study of Mus musculus with 12 samples.

Results

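Collagen transcripts were followed in the interscapular brown fat of mice kept for 4 weeks at 6, 22 or 30 °C. The genes were chosen by name: every row of the count table whose symbol begins with Col, a type number, the letter a and a chain number, which takes 45 of 38924 rows. One of these, Col4a3bp, encodes a ceramide transfer protein and no collagen chain, and it is kept apart, which leaves 44 collagen genes. They fall into 4 groups by the protein they build: 11 fibrillar chains, 6 basement membrane chains (type IV), 6 chains of collagen VI and 21 others. Each library comes from 1 wild-type C57BL/6J mouse, with 4 mice in each of 3 groups: 6 °C (severe cold), 22 °C (mild cold) and 30 °C (thermoneutrality). The mice entered their temperature at 10 weeks of age and were 14 weeks old at sampling; the labels name no transgene, deletion or drug in any group.

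Collagens are secreted proteins whose chains wind into a triple helix. Fibrillar collagens are trimmed outside the cell and pack into fibrils that give tissue its tensile strength, type IV collagen forms the sheet of basement membranes around adipocytes, capillaries, muscle and nerve, and collagen VI builds beaded filaments that link fibrils, cells and basement membranes. In fat, fibroblasts and adipocyte progenitors are known as the main source of fibrillar and type VI chains, while adipocytes, endothelial cells and pericytes make type IV chains.

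The stretches of DNA just before 4 of the genes are shown because these genes carry the contrasting temperature profiles described below. Col3a1 and Col6a3 fell at 22 and 6 °C, Col27a1 was higher at 6 °C than at 22 and 30 °C, and Col7a1 was lowest at 30 °C. Each sequence holds the 250 bases before the RefSeq start in GRCm38.p6, read 5′ to 3′ on the strand of the gene. The windows are chr1:45311288-45311537 (plus strand), chr1:90843972-90844221 (minus strand), chr4:63215162-63215411 (plus strand) and chr9:108953336-108953585 (plus strand). Capitals mark 3 motifs searched on both strands: CCAAT or its reverse complement ATTGG, then GGGCGG or its reverse complement CCGCCC, and TATAAA or its reverse complement TTTATA. No match overlaps another.
Col3a1: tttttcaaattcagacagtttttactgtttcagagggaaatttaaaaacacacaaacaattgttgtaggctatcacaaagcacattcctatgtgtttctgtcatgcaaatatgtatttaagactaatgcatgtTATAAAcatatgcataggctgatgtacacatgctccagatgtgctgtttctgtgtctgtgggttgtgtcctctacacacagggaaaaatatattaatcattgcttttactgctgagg
Col6a3: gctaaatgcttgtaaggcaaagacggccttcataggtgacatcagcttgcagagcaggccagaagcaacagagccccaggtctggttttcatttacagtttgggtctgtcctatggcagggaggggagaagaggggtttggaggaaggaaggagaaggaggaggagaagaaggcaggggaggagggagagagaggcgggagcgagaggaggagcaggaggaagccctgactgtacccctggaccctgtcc
Col27a1: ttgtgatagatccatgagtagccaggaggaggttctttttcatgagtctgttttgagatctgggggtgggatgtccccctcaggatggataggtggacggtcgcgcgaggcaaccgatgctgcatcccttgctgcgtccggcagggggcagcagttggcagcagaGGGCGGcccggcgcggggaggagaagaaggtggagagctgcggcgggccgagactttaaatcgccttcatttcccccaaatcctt
Col7a1: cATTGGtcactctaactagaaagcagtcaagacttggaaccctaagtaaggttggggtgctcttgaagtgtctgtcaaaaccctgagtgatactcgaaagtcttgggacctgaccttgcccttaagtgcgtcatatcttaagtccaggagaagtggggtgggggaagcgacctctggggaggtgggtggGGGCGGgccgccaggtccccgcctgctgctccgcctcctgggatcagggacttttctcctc
Col3a1 held TATAAA, with its first base 117 bases before the start. Col27a1 held GGGCGG at 85 bases, and Col7a1 held it at 61 bases besides ATTGG at 249 bases. Col6a3 held none of the 3. In windows of the same length, 13 of 38 collagen promoters (35 genes) held CCAAT on either strand, against 33.8% of 32851 promoters in the RefSeq table. GGGCGG stood in 22 of the 38 collagen promoters, against 32.7% of the table, and TATAAA in 5 of 38, against 12.4%. The longest annotated Col27a1 transcript starts further upstream, so that its window lies inside the annotated gene. A match is a run of letters and not evidence of binding.

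The libraries held between 18290162 and 32513051 counts, except 22 °C mouse 3 with 86438386. The columns of 10 libraries could be matched to a numbered mouse; the remaining 2, called 30 °C mice A and B, were assigned to 30 °C by the letter of their code alone. Mouse B had the highest level of its group in 20 of the 31 collagen genes that passed the filter on low counts, and results that turn on it are given with and without it. Levels are CPM, counts scaled to library size after TMM normalisation, and adjusted p-values come from the quasi-likelihood test of edgeR, adjusted by Benjamini-Hochberg over 14870 genes and called when under 0.05. Where 3 values follow each other in parentheses, they are the log2 fold change, its SE and the adjusted p; a value after ± is the SD over the 4 mice of a group. Brown adipocyte markers summed to between 24960 and 27084 CPM at 6 °C, 17731 and 20501 CPM at 22 °C, and 11554 and 13487 CPM at 30 °C, with none of the 10 at 0. At 6 °C against 30 °C, 1 of the 10 was lower and 7 higher, against 31.5% and 25.3% of all tested genes. At 6 °C against 22 °C, 2 were lower and 2 higher, against 17.4% and 16.9%, with a median log2 fold change of 0.00. Markers of skeletal muscle ranged from 10.0 to 4484 CPM over the 12 libraries.

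At 6 °C, 24 of the 31 tested collagen genes were lower than at 30 °C, where 31.5% of all tested genes were lower. Col27a1, Col11a2 and Col7a1 were higher, a direction taken by 25.3% of all tested genes, and Col5a3, Col14a1, Col24a1 and Col4a6 did not pass. Without 30 °C mouse B, 22 were lower and 3 higher, and without 30 °C mice A and B 22 were lower and 2 higher. These fits filtered the genes anew, so their counts can include collagens outside the 31. Among the 31, the lower calls of Col13a1, Col20a1 and Col9a3 were lost without mice A and B. Scaling by total counts alone moved the median of all tested genes by -0.32 and made 19.7% of all called genes higher, against 44.6% with TMM. Of the collagens, 27 were then lower and 2 higher, where 7888 of all 14870 tested genes were lower and 1939 higher. The median log2 fold change over the tested collagens was -1.15, against -0.11 over all tested genes. Of the 24 lower genes, 17 were lower by at least 2-fold, a size reached by 12.4% of all tested genes; of the 3 higher genes only Col27a1 reached it, against 5.86%. By group, 5 fibrillar genes were lower and 2 higher of 9 tested (median -1.36), 5 basement membrane genes were lower of 6 (median -1.07), all 4 tested collagen VI genes were lower (median -1.33), and 10 of the 12 tested others were lower and 1 higher (median -1.01). In RNA of a whole depot, fewer cells of a type and less RNA per cell cannot be told apart.

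Markers of several cell types moved in the same comparison. Fibroblast markers summed to between 848 and 1011 CPM at 6 °C, 1535 and 2527 CPM at 22 °C, and 2124 and 3577 CPM at 30 °C. Gsn alone averaged 716, 1676 and 2353 CPM in that order and made up most of each sum. Of the 10 fibroblast markers, 8 fell at 6 °C against 30 °C. Their median log2 fold change at 6 °C against 22 °C was -0.20. Endothelial markers summed to between 965 and 1056 CPM at 6 °C, 907 and 1063 CPM at 22 °C, and 1433 and 1703 CPM at 30 °C, with 8 of 10 lower at 6 °C than at 30 °C. Pericyte and smooth muscle markers summed to between 799 and 874, 792 and 998, and 968 and 1209 CPM at 6, 22 and 30 °C, with 6 of 10 lower and 1 higher at 6 °C than at 30 °C. Macrophage markers summed to between 138 and 230, 98.6 and 144, and 261 and 690 CPM in the same order, with 7 of 10 lower. At 30 °C these macrophage sums were 289 and 261 CPM in mice 1 and 2, and 589 and 690 CPM in mice A and B. White adipocyte markers summed to between 57.7 and 127, 131 and 303, and 284 and 369 CPM, with 3 of 5 tested lower; Hoxc10 was at 0 in every 22 °C library. None of the markers of the first 4 lists was at 0 throughout a group. Of all tested genes, 31.5% were lower and 25.3% higher at 6 °C than at 30 °C. The part of these markers in the fall of the collagen genes was not tested.

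**Figure D1:**
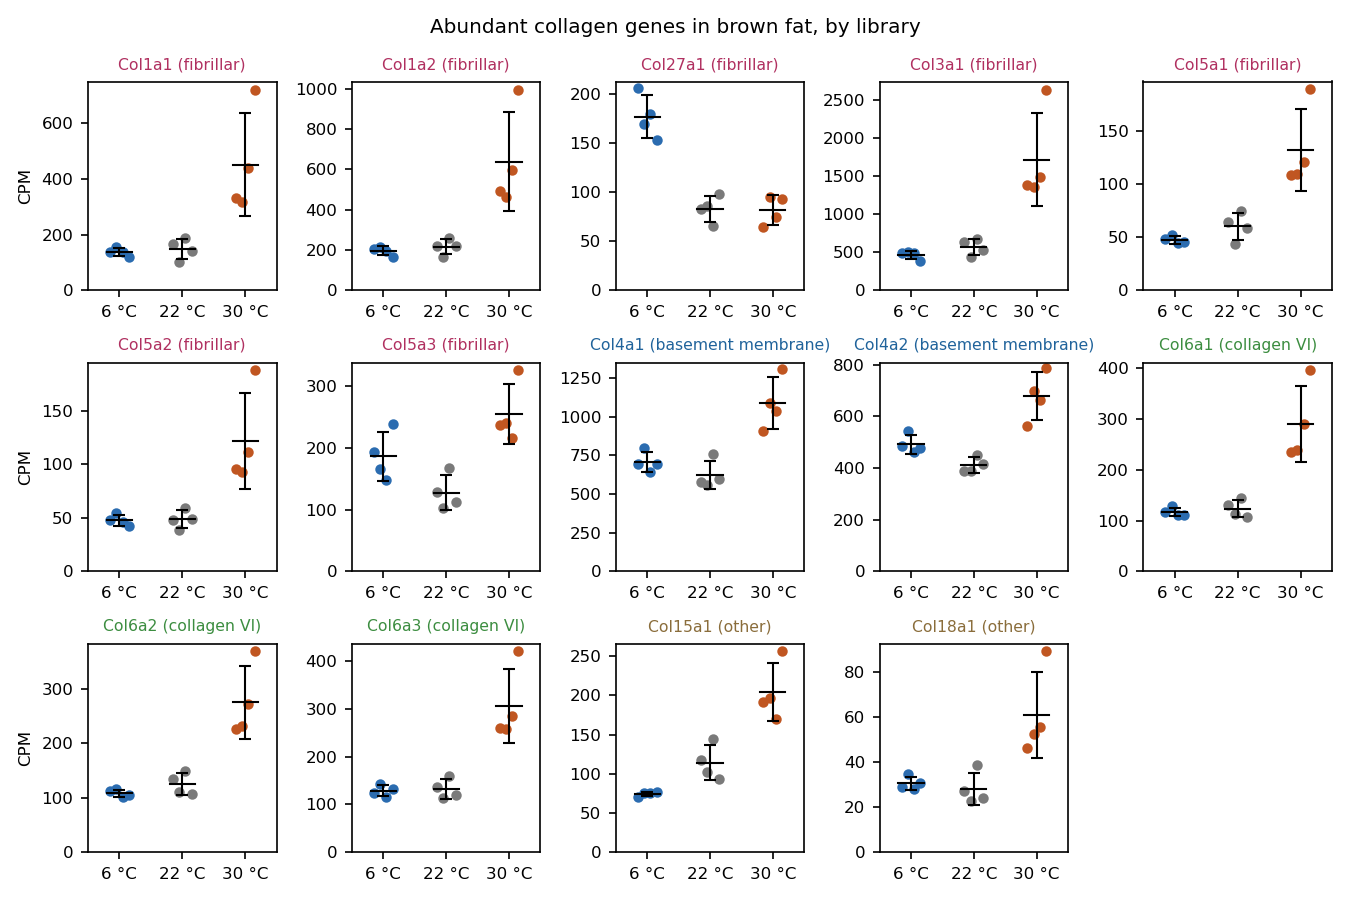
Level in CPM (vertical axes, each starting at 0) of the 14 collagen genes that averaged 20 CPM or more, in each of 4 libraries at 6, 22 and 30 °C; points are libraries, long bars are means and whiskers are SD. Outside Col27a1 and Col5a3, every 30 °C library lies above every library of the other temperatures.

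Among the fibrillar genes, Col3a1, Col1a1, Col1a2, Col5a1 and Col5a2, which build the type III, I and V fibrils of connective tissue, fell at both 6 and 22 °C against 30 °C. Col3a1 (chr1:45311538-45349706, GRCm38), the single chain of type III fibrils, had 496, 501, 486 and 391 CPM in 6 °C mice, 635, 436, 681 and 526 CPM in 22 °C mice and 1386, 1353, 1494 and 2631 CPM in 30 °C mice. All 30 °C libraries were above all others, mouse B highest of all, and the 6 and 22 °C libraries overlapped. Col3a1 fell 3.66-fold at 6 °C against 30 °C (log2 fold change -1.87, SE 0.22, adjusted p 1.9e-05) and 3.01-fold at 22 °C against 30 °C (-1.59, SE 0.22, adjusted p 1.4e-04). Between 6 and 22 °C it did not pass (-0.28, SE 0.21, adjusted p 0.324). Without mouse B the log2 fold change of Col3a1 at 6 °C against 30 °C was -1.59.

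Col1a1 (chr11:94936224-94953042) and Col1a2 (chr6:4504814-4541544) encode the chains of type I collagen, the main fibril of connective tissue. Col1a1 had 136, 154, 136 and 118 CPM at 6 °C, 167, 103, 186 and 142 CPM at 22 °C and 331, 316, 439 and 717 CPM at 30 °C. Col1a2 had 207, 217, 197 and 166 CPM at 6 °C, 220.5, 167, 260.1 and 221 CPM at 22 °C and 494, 465, 598 and 995 CPM at 30 °C. Both showed the same arrangement of libraries as Col3a1: the 30 °C libraries stood apart, and those at 6 and 22 °C overlapped. The log2 fold changes of Col1a1 were -1.73, SE 0.26, adjusted p 2.0e-04 at 6 °C against 30 °C and -1.59, SE 0.26, adjusted p 5.8e-04 at 22 °C against 30 °C. Those of Col1a2 were -1.70, SE 0.23, adjusted p 6.4e-05 and -1.56, SE 0.23, adjusted p 2.4e-04. Neither passed between 6 and 22 °C (Col1a1 -0.14, SE 0.26, adjusted p 0.709; Col1a2 -0.14, SE 0.22, adjusted p 0.649). Leaving out mouse B gave -1.41 for Col1a1 at 6 °C against 30 °C.

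Type V collagen sits inside type I fibrils and limits their width; its genes did not all behave alike. Col5a1 (chr2:27886425-28039514) had 48.1, 52.3, 44.3 and 45.2 CPM at 6 °C, 64.4, 43.8, 74.7 and 58.4 CPM at 22 °C and 109, 110.2, 121 and 189.7 CPM at 30 °C. Col5a2 (chr1:45374321-45503282) had 48.2, 54.3, 46.1 and 42.1 CPM at 6 °C, 48.0, 38.6, 59.6 and 48.9 CPM at 22 °C and 95.4, 93.3, 112 and 188 CPM at 30 °C. In both, the lowest 30 °C library was above the highest of the cold groups. They fell at 6 °C against 30 °C (Col5a1 -1.48, SE 0.19, adjusted p 5.3e-05; Col5a2 -1.36, SE 0.22, adjusted p 2.6e-04) and at 22 °C against 30 °C (Col5a1 -1.13, SE 0.19, adjusted p 6.0e-04; Col5a2 -1.32, SE 0.21, adjusted p 5.3e-04), and they did not pass between 6 and 22 °C (-0.35, SE 0.19, adjusted p 0.179 and -0.04, SE 0.21, adjusted p 0.912). Col5a3 (chr9:20770050-20815067), the third type V chain, had 192, 165, 148 and 239 CPM at 6 °C, 128, 102, 166 and 113 CPM at 22 °C and 236, 240.3, 216 and 326 CPM at 30 °C. It was lowest at 22 °C, where every library was below every 30 °C library, while the 6 °C libraries overlapped both other groups. Its log2 fold change was -1.0, SE 0.19, adjusted p 0.00103 at 22 °C against 30 °C and 0.55, SE 0.18, adjusted p 0.0381 at 6 °C against 22 °C; at 6 °C against 30 °C it was -0.45, SE 0.18, adjusted p 0.0525. The call at 6 °C against 22 °C was lost without 6 °C mouse 1 (adjusted p 0.0754) or 4 (0.109) and without 22 °C mouse 1 (0.07), 2 (0.099) or 4 (0.0956). It was also lost with scaling by total counts alone (adjusted p 0.0965), with no filter (0.084) and in a fit of just the 8 libraries compared (0.0515). At 6 °C against 30 °C, Col5a3 passed as lower without 6 °C mouse 4 (adjusted p 0.0172), 22 °C mouse 2 (0.0483) or 3 (0.038), or 30 °C mouse A (0.0424), and with upper-quartile scaling (0.0303), total-count scaling (0.00721) or the filter of 1 CPM in 4 libraries (0.0461).

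Col27a1 (chr4:63214004-63334991), a fibrillar chain known from cartilage and other tissues, went the other way. It had 206, 169, 180.3 and 153 CPM at 6 °C, 83.4, 86.04, 65.9 and 97.9 CPM at 22 °C and 64.5, 95.7, 74.5 and 93.3 CPM at 30 °C. Every 6 °C library was above every other library, and those at 22 and 30 °C covered nearly the same range. Col27a1 was 2.16-fold higher at 6 °C than at 30 °C (log2 fold change 1.11, SE 0.15, adjusted p 4.2e-05) and 2.13-fold higher at 6 °C than at 22 °C (1.09, SE 0.15, adjusted p 2.0e-04), and at 22 °C against 30 °C the log2 fold change was 0.02, SE 0.15, adjusted p 0.919. Over all alternatives run for the comparison of 6 with 30 °C its log2 fold change lay between 0.79 and 1.23. Col11a2 (chr17:34039437-34066685), a chain of the cartilage fibril, had 9.62, 10.4, 7.71 and 14.95 CPM at 6 °C, 9.90, 6.44, 8.30 and 7.04 CPM at 22 °C and 7.83, 5.67, 5.03 and 5.80 CPM at 30 °C. Its 6 and 30 °C ranges met at their edges, and mouse 4 was the highest at 6 °C. Col11a2 was higher at 6 °C than at 30 °C (0.81, SE 0.21, adjusted p 0.00489) and passed neither at 22 °C against 30 °C (0.38, SE 0.21, adjusted p 0.151) nor at 6 °C against 22 °C (0.42, SE 0.21, adjusted p 0.13). The call was lost when libraries were scaled by total counts alone (log2 fold change 0.49, adjusted p 0.0614) and with both 30 °C mice A and B left out (log2 fold change 0.67 at an adjusted p of 0.0599).

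Cartilage markers were near 0 beside Col27a1. Their 7 genes summed to between 1.56 and 2.31 CPM at 6 °C, and 1.89 and 2.39 CPM at 22 °C. At 30 °C they summed to between 4.35 and 7.05 CPM, a range that overlapped that of Col11a2, 5.03 to 7.83 CPM. Matn1 was at 0 in every 6 °C library. The 2 that could be tested, Sox9 and Comp, were lower at 6 °C than at 30 °C, where 31.5% of all tested genes were lower. Col24a1, a fibrillar chain of developing bone, averaged 0.250 ± 0.212 CPM at 6 °C, 0.552 ± 0.201 CPM at 22 °C and 0.366 ± 0.152 CPM at 30 °C (SD, n = 4 each). It passed in none of the 3 comparisons (log2 fold changes -0.56, SE 0.53, adjusted p 0.382; 0.48, SE 0.48, adjusted p 0.449; -1.04, SE 0.52, adjusted p 0.141). Without 6 °C mouse 1, whose level was 0.568 CPM from 14 counts, its log2 fold change was -1.33 at 6 °C against 30 °C (adjusted p 0.0441) and -1.82 at 6 °C against 22 °C (adjusted p 0.0183).

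Type IV collagen of nearly every basement membrane is built of Col4a1 and Col4a2 chains. Col4a1 (chr8:11198423-11312826) had 696, 800.3, 642 and 691 CPM at 6 °C, 580.0, 559, 758 and 596 CPM at 22 °C and 909.8, 1089, 1033 and 1311 CPM at 30 °C. Col4a2 (chr8:11312805-11449287) had 486, 542, 461 and 479 CPM at 6 °C, 389, 389, 452 and 417 CPM at 22 °C and 561, 699, 666 and 789 CPM at 30 °C. The 30 °C libraries of both genes were above all others, and for Col4a2 the 6 °C libraries also lay above all those at 22 °C. Col4a1 fell 1.53-fold at 6 °C against 30 °C (-0.62, SE 0.13, adjusted p 0.00111) and 1.74-fold at 22 °C against 30 °C (-0.80, SE 0.13, adjusted p 3.1e-04). Col4a2 fell 1.38-fold (-0.46, SE 0.10, adjusted p 0.0018) and 1.65-fold (-0.72, SE 0.10, adjusted p 1.5e-04) in the same comparisons. At 6 °C against 22 °C the log2 fold changes were 0.18, SE 0.13, adjusted p 0.284 for Col4a1 and 0.26, SE 0.10, adjusted p 0.0672 for Col4a2, which did not pass. Col4a2 did pass as higher at 6 °C than at 22 °C with RLE scaling (adjusted p 0.0444), in DESeq2 (0.0222), with just the 8 libraries compared (0.0303) and without 30 °C mice A and B (0.0379). Col4a2 passed there as higher without 22 °C mouse 3 (0.32, adjusted p 0.0463), 30 °C mouse 1 (adjusted p 0.0341) or 30 °C mouse B (adjusted p 0.0379).

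The remaining type IV chains, which build the specialised networks of kidney, eye and smooth muscle basement membranes, were scarce. Col4a5 (chrX:141475385-141689234) had 3.33, 2.71, 3.89 and 1.94 CPM at 6 °C, 6.48, 7.51, 6.27 and 6.99 CPM at 22 °C and 10.2, 11.9, 8.63 and 16.8 CPM at 30 °C, and the 3 groups did not overlap. It was lower at 6 °C than at 30 °C (-1.99, SE 0.23, adjusted p 1.1e-05), at 22 °C than at 30 °C (-0.81, SE 0.22, adjusted p 0.00809) and at 6 °C than at 22 °C (-1.19, SE 0.23, adjusted p 0.00173). Col4a3 averaged 1.62 ± 0.287 CPM at 6 °C, 3.15 ± 0.419 CPM at 22 °C and 3.05 ± 1.05 CPM at 30 °C (SD, n = 4 each), and Col4a4 averaged 0.874 ± 0.200, 1.92 ± 0.672 and 2.34 ± 0.695 CPM in that order. These 2 were lower at 6 °C than at 30 °C (Col4a3 -0.91, SE 0.25, adjusted p 0.00746; Col4a4 -1.40, SE 0.31, adjusted p 0.00186) and than at 22 °C (-0.97, SE 0.25, adjusted p 0.0102 and -1.14, SE 0.31, adjusted p 0.0131). At 22 °C against 30 °C their log2 fold changes were 0.06, SE 0.24, adjusted p 0.866 and -0.26, SE 0.29, adjusted p 0.507. Col4a6 averaged 0.192 ± 0.0530 CPM at 6 °C and 0.446 ± 0.102 CPM at 30 °C and did not pass (-1.23, SE 0.50, adjusted p 0.0506). Without 22 °C mouse 3 (adjusted p 0.00992), 22 °C mouse 4 (0.0303) or 30 °C mouse A (0.0495) it passed as lower at 6 °C than at 30 °C, and without 22 °C mouse 4 also at 6 °C against 22 °C (-1.39, adjusted p 0.0369). It also passed at 6 °C against 30 °C with upper-quartile (0.0413) or total-count scaling (0.0182).

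Type IV genes lie in head-to-head pairs. The annotated starts of Col4a1 and Col4a2 are 21 bases apart and the gene spans overlap by 22 bases, those of Col4a3 and Col4a4 are 72 bases apart, and those of Col4a5 and Col4a6 are 1309 bases apart. Whether counting used the strand is not stated, and reads from genes that overlap on opposite strands therefore cannot be told apart. Col4a1 shares 0.295% and Col4a2 0.982% of its exon length with genes on the other strand. The share was above 5% in 2 tested collagens, 5.65% in Col4a3 (C430014B12Rik) and 6.07% in Col9a3 (Tcfl5).

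Collagen VI anchors cells to the matrix and is a known component of the matrix around adipocytes. Col6a1 (chr10:76708792-76726168) had 117, 129, 111 and 111 CPM at 6 °C, 131, 113, 144 and 106 CPM at 22 °C and 235, 239, 291 and 396 CPM at 30 °C. Col6a2 (chr10:76595762-76623630) had 112, 116, 102 and 104 CPM at 6 °C, 134, 111, 149 and 108 CPM at 22 °C and 226, 232, 273 and 369.7 CPM at 30 °C. Col6a3 (chr1:90765923-90843971), which completes the filament and whose cleaved end is the peptide endotrophin, had 124, 143, 116 and 132 CPM at 6 °C, 136, 113, 160.3 and 119.6 CPM at 22 °C and 259.5, 257, 285 and 420.4 CPM at 30 °C. For the 3 genes the 30 °C libraries stood above all others and the cold groups overlapped. Their log2 fold changes at 6 °C against 30 °C were -1.31, SE 0.16, adjusted p 1.8e-05 for Col6a1, -1.34, SE 0.15, adjusted p 1.2e-05 for Col6a2 and -1.25, SE 0.16, adjusted p 3.3e-05 for Col6a3. At 22 °C against 30 °C they were -1.23, SE 0.16, adjusted p 8.0e-05, -1.13, SE 0.15, adjusted p 1.1e-04 and -1.21, SE 0.16, adjusted p 1.1e-04, and at 6 °C against 22 °C none of the 3 passed (-0.08, SE 0.15, adjusted p 0.705, -0.21, SE 0.15, adjusted p 0.293 and -0.04, SE 0.16, adjusted p 0.861). Without mouse B, Col6a1 fell by 1.13 on the log2 scale at 6 °C against 30 °C.

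Col6a6 (chr9:105687809-105828160), a later found chain that can take the place of the third, had a wider range. It had 1.42, 0.769, 1.38 and 0.787 CPM at 6 °C, 4.997, 3.82, 2.94 and 3.43 CPM at 22 °C and 6.37, 7.56, 7.25 and 9.04 CPM at 30 °C, and the 3 groups did not overlap. The fall was 6.88-fold at 6 °C against 30 °C (-2.78, SE 0.24, adjusted p 1.2e-06), 2.01-fold at 22 °C against 30 °C (-1.01, SE 0.22, adjusted p 0.00232) and 3.43-fold at 6 °C against 22 °C (-1.78, SE 0.24, adjusted p 1.9e-04). Col6a4 and Col6a5 held too few counts to be tested.

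The multiplexins, Col15a1 and Col18a1, are proteoglycan collagens of the basement membrane zone. Col15a1 (chr4:47208161-47313167) had 70.9, 75.7, 75.8 and 76.3 CPM at 6 °C, 118, 102, 144 and 93.3 CPM at 22 °C and 192, 196, 170.1 and 257 CPM at 30 °C. The groups did not overlap, and the 6 °C libraries were closely spaced. Col15a1 fell at 6 °C against 30 °C (-1.45, SE 0.14, adjusted p 3.5e-06), at 22 °C against 30 °C (-0.83, SE 0.14, adjusted p 4.4e-04) and at 6 °C against 22 °C (-0.62, SE 0.14, adjusted p 0.00492). Col18a1 (chr10:77052178-77166548), the source of endostatin, had 28.9, 34.5, 28.1 and 30.7 CPM at 6 °C, 27.2, 23.0, 38.6 and 24.2 CPM at 22 °C and 46.4, 52.7, 55.6 and 89.2 CPM at 30 °C. Its cold groups overlapped and lay below 30 °C, with log2 fold changes of -1.0, SE 0.21, adjusted p 0.00175 at 6 °C against 30 °C, -1.10, SE 0.21, adjusted p 0.00132 at 22 °C against 30 °C and 0.11, SE 0.21, adjusted p 0.721 at 6 °C against 22 °C.

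Fibril-associated collagens bind to the surface of fibrils. Col12a1 averaged 12.4 ± 2.76 CPM at 6 °C, 14.4 ± 3.91 CPM at 22 °C and 27.2 ± 1.00 CPM at 30 °C (SD, n = 4 each); it fell at 6 °C (-1.13, SE 0.19, adjusted p 2.6e-04) and at 22 °C (-0.91, SE 0.19, adjusted p 0.00164), each against 30 °C. Col16a1 averaged 4.36 ± 0.413, 3.90 ± 0.802 and 8.30 ± 2.13 CPM and fell likewise (-0.93, SE 0.19, adjusted p 0.00118 and -1.08, SE 0.19, adjusted p 6.4e-04). Col14a1 averaged 5.58 ± 0.401, 5.58 ± 1.95 and 9.25 ± 3.56 CPM and did not pass at 6 °C (-0.73, SE 0.30, adjusted p 0.0514) or 22 °C (-0.72, SE 0.30, adjusted p 0.0663) against 30 °C. Col14a1 did pass as lower at 6 °C without 22 °C mouse 2 (adjusted p 0.0168), 30 °C mouse 2 (0.0182) or 30 °C mouse A (0.0349), and at 22 °C without 30 °C mouse 2 (0.0249) or A (0.0457). It passed in both comparisons with total-count scaling (0.0108 and 0.0211) and in DESeq2 (0.0393 and 0.041), and at 6 °C alone with upper-quartile scaling (0.0372), the filter of 1 CPM in 4 libraries (0.0476) or just the 8 libraries compared (0.043). Col9a3, a cartilage chain, averaged 0.436 ± 0.208, 0.518 ± 0.102 and 0.863 ± 0.215 CPM. It was lower at 6 °C than at 30 °C (-1.02, SE 0.34, adjusted p 0.0201), a call that was lost without 6 °C mouse 2 (adjusted p 0.0675), 6 °C mouse 3 (0.0679), 30 °C mouse B (0.0657) or 30 °C mice A and B (0.123). Col20a1 (chr2:180986535-181018363) had 3.61, 3.01, 2.83 and 2.62 CPM at 6 °C, 6.63, 7.22, 6.94 and 6.99 CPM at 22 °C and 5.08, 3.22, 4.46 and 4.85 CPM at 30 °C. It was highest at 22 °C, where every library was above all others, and the 6 and 30 °C libraries overlapped. Col20a1 was higher at 22 °C than at 30 °C (0.65, SE 0.15, adjusted p 0.00376), lower at 6 °C than at 22 °C (-1.20, SE 0.16, adjusted p 1.5e-04) and lower at 6 °C than at 30 °C (-0.54, SE 0.16, adjusted p 0.00991). The first call was lost with scaling by total counts alone (0.39, adjusted p 0.0707), and the last with 30 °C mice A and B left out, where the log2 fold change was -0.45 at an adjusted p of 0.087.

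Among transmembrane collagens, Col23a1 (chr11:51289920-51583918) had 2.27, 2.01, 2.02 and 1.73 CPM at 6 °C, 6.88, 7.39, 6.45 and 6.82 CPM at 22 °C and 7.15, 7.48, 6.14 and 6.05 CPM at 30 °C. The 6 °C libraries were below all others, and those at 22 and 30 °C overlapped. Col23a1 fell 3.33-fold at 6 °C against 30 °C (-1.73, SE 0.13, adjusted p 4.3e-07) and 3.41-fold against 22 °C (-1.77, SE 0.13, adjusted p 4.5e-06), with 0.04, SE 0.12, adjusted p 0.943 at 22 °C against 30 °C. Col13a1, found at cell contacts and the nerve-muscle junction, averaged 3.19 ± 0.608 CPM at 6 °C, 2.86 ± 0.309 CPM at 22 °C and 4.36 ± 0.443 CPM at 30 °C (SD, n = 4 each). It was lower at 22 °C than at 30 °C (-0.61, SE 0.17, adjusted p 0.00916) and at 6 °C than at 30 °C (-0.45, SE 0.16, adjusted p 0.0316). The call at 6 °C was lost without 6 °C mouse 2 (adjusted p 0.101) or 4 (0.0674), and without 30 °C mouse 2 (0.0764), A (0.0654) or B (0.0594). It was also lost with RLE scaling (0.0577), no filter (0.0736), DESeq2 (0.0554) or just the 8 libraries compared (0.0737), and without 30 °C mice A and B both calls of Col13a1 were lost (adjusted p 0.155 at 6 °C and 0.0688 at 22 °C). Col8a1, a network chain of vessel walls, averaged 6.48 ± 1.23, 6.43 ± 1.74 and 14.4 ± 3.67 CPM and fell at 6 °C (-1.15, SE 0.22, adjusted p 7.6e-04) and 22 °C (-1.15, SE 0.22, adjusted p 0.00107) against 30 °C.

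Col7a1 (chr9:108953586-108984875), the chain of the anchoring fibrils under epithelia, was the only one of the 12 tested others that was higher at 6 °C than at 30 °C. It had 9.38, 6.82, 7.40 and 7.97 CPM at 6 °C, 6.48, 7.75, 5.91 and 7.35 CPM at 22 °C and 4.78, 4.42, 3.75 and 5.55 CPM at 30 °C. All 30 °C libraries were below all others. Col7a1 was higher at 6 °C than at 30 °C (0.77, SE 0.15, adjusted p 8.1e-04) and at 22 °C than at 30 °C (0.57, SE 0.15, adjusted p 0.00822), and did not pass between 6 and 22 °C (0.20, SE 0.15, adjusted p 0.312). The call at 22 °C against 30 °C was lost with scaling by total counts alone (0.30, adjusted p 0.151). Col28a1 (chr6:7997808-8192617), a von Willebrand domain collagen known from peripheral nerve, had the largest change of the 31 tested collagens at 6 °C against 30 °C. It had 0.853, 2.01, 0.885 and 1.31 CPM at 6 °C, 2.47, 2.504, 2.4997 and 2.51 CPM at 22 °C and 13.0, 11.4, 8.63 and 17.6 CPM at 30 °C, and the groups did not overlap. Its fall was 9.95-fold at 6 °C against 30 °C (-3.31, SE 0.28, adjusted p 9.4e-07), 5.07-fold at 22 °C against 30 °C (-2.34, SE 0.26, adjusted p 3.2e-05) and 1.96-fold at 6 °C against 22 °C (-0.97, SE 0.28, adjusted p 0.0166). The last call was lost without 6 °C mouse 3 (adjusted p 0.0526) and stood at an adjusted p of 0.05 in limma voom. Schwann cell markers summed to between 192 and 210 CPM at 6 °C, 185 and 232 CPM at 22 °C, and 169 and 229 CPM at 30 °C. Of 7 tested, 1 was lower (Ngfr) and 1 higher (Mbp) at 6 °C than at 30 °C, against 31.5% and 25.3% of all tested genes.

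**Figure D2:**
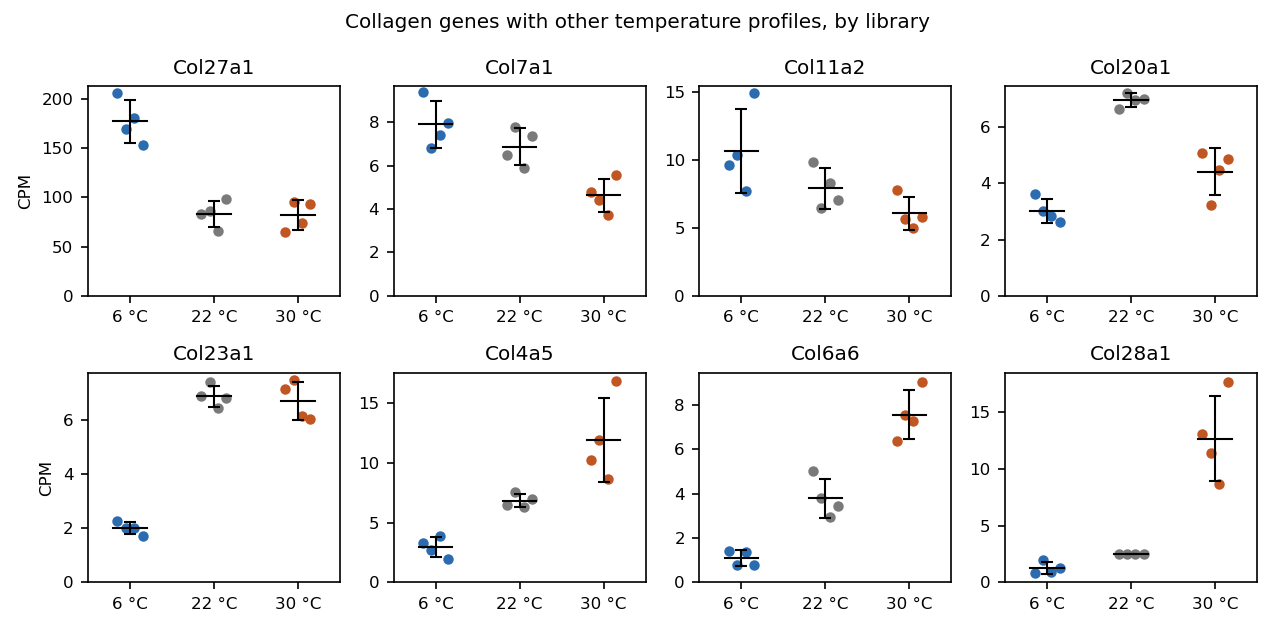
Level in CPM (vertical axes, each starting at 0) in each of 4 libraries at 6, 22 and 30 °C for 8 collagen genes; points are libraries, long bars are means and whiskers are SD. The means of Col27a1, Col7a1 and Col11a2 are highest at 6 °C and that of Col20a1 at 22 °C. For Col7a1 and Col11a2 the 6 and 22 °C libraries overlap. Col23a1 is lowest at 6 °C, and Col4a5, Col6a6 and Col28a1 step down with each lower temperature.

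The 13 collagen genes below the filter held between 6 and 122 counts over the 12 libraries. They are Col2a1 and Col11a1 of the fibrillar group, Col6a4 and Col6a5 of collagen VI, and Col8a2, Col9a1, Col9a2, Col10a1, Col17a1, Col19a1, Col22a1, Col25a1 and Col26a1 of the others. They stayed out of the fit. When all 27204 genes with a count were fitted, 3 of the 13 were lower and 1 higher at 6 °C than at 30 °C, where 16.4% of all genes in that fit were lower and 13.6% higher. The lower ones were Col6a5 (log2 fold change -3.27, adjusted p 7.7e-04), with 5 counts over the 6 °C libraries and 60 over the 30 °C libraries, Col17a1 (-1.97, adjusted p 0.00545; 8 and 38 counts) and Col22a1 (-2.17, adjusted p 0.0335; 6 and 34 counts). Col10a1 was higher (1.87, adjusted p 0.00815; 29 and 9 counts). In that fit Col6a4 was lower at 22 °C than at 30 °C (-2.59, adjusted p 0.0378) and Col10a1 (1.58, adjusted p 0.0308) and Col11a1 (1.98, adjusted p 0.0169) were higher, against 11.7% and 11.2% of all genes in it. Between 6 and 22 °C none of the 13 passed in that edgeR fit. With so few counts per library, these sizes are imprecise. Col4a3bp, which is no collagen, averaged 70.4 ± 5.56 CPM at 6 °C, 59.9 ± 2.42 CPM at 22 °C and 58.8 ± 3.58 CPM at 30 °C, and was higher at 6 °C than at 30 °C (0.26, SE 0.07, adjusted p 0.00742).

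The step of 22 °C against 30 °C and the step of 6 °C against 22 °C were then set side by side; both use the same 22 °C libraries, as the comparisons of 6 and of 22 °C with 30 °C share the 30 °C libraries. At 22 °C against 30 °C, 20 of 31 tested collagens were lower and 2 higher, against 22.8% and 21.8% of all tested genes, with a median log2 fold change of -0.83 over the tested collagens and -0.02 over all tested genes. Without 30 °C mice A and B 19 were lower, where 2303 of all 15171 genes in that fit were lower. With scaling by total counts alone 22 were lower and 0 higher, where 6224 of all 14870 tested genes were lower and 1419 higher. Of all called genes 18.6% were then higher, against 49% with TMM. At least 2-fold lower were 13, against 9.74% of all tested genes. The lower genes were 6 of 9 fibrillar, 3 of 6 basement membrane, 4 of 4 collagen VI and 7 of 12 others; the 2 higher were Col20a1 and Col7a1. At 6 °C against 22 °C, 8 were lower and 2 higher, against 17.4% and 16.9% of all tested genes, with medians of -0.14 and -0.03. The lower genes there were Col4a3, Col4a4 and Col4a5 of the basement membrane group, Col6a6 of collagen VI, and Col15a1, Col20a1, Col23a1 and Col28a1 of the others; no fibrillar gene was lower, and Col27a1 and Col5a3 were higher. At 22 °C against 30 °C, 8 of 10 fibroblast markers and 9 of 10 endothelial markers were lower. At 6 °C against 22 °C, 4 of 10 fibroblast markers were lower and 1 higher, and 1 of 10 endothelial markers was lower and 2 were higher. Their part in these counts was not tested.

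Whether the colder step repeated the milder one was tested as the difference of their log2 fold changes. For 17 of 31 tested collagens the difference passed, against 29.3% of all tested genes. It was positive in 15 (14.3% of all tested genes were), meaning that the colder step was less negative or more positive, and negative in 2 (15%). Among the positive were Col1a1 (1.46, SE 0.46, adjusted p 0.0329), Col3a1 (1.31, SE 0.38, adjusted p 0.0208), Col4a1 (0.98, SE 0.22, adjusted p 0.00596), Col6a3 (1.16, SE 0.28, adjusted p 0.00833) and Col5a3 (1.54, SE 0.33, adjusted p 0.00486). The negative ones were Col23a1 (-1.81, SE 0.21, adjusted p 1.9e-04) and Col20a1 (-1.85, SE 0.26, adjusted p 5.2e-04). Col15a1 (0.22, SE 0.24, adjusted p 0.535), Col4a5 (-0.38, SE 0.38, adjusted p 0.483) and Col6a6 (-0.77, SE 0.39, adjusted p 0.153), all lower at each step, did not pass, while the fourth gene lower at each step, Col28a1, was among the positive (1.37, SE 0.47, adjusted p 0.0422). With scaling by total counts alone the count was 18, and 70.2% of all called genes were positive, against 48.8% with TMM. Over all 14870 tested genes 3007 were then positive and 1275 negative. The count rests in part on single 22 °C libraries: it was 8 without 22 °C mouse 2 and 10 without 22 °C mouse 4. Over all 15152 genes in the fit without mouse 2, 1665 were positive and 1652 negative. Over all 15155 genes in the fit without mouse 4, 1712 were positive and 1713 negative.

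**Figure D3:**
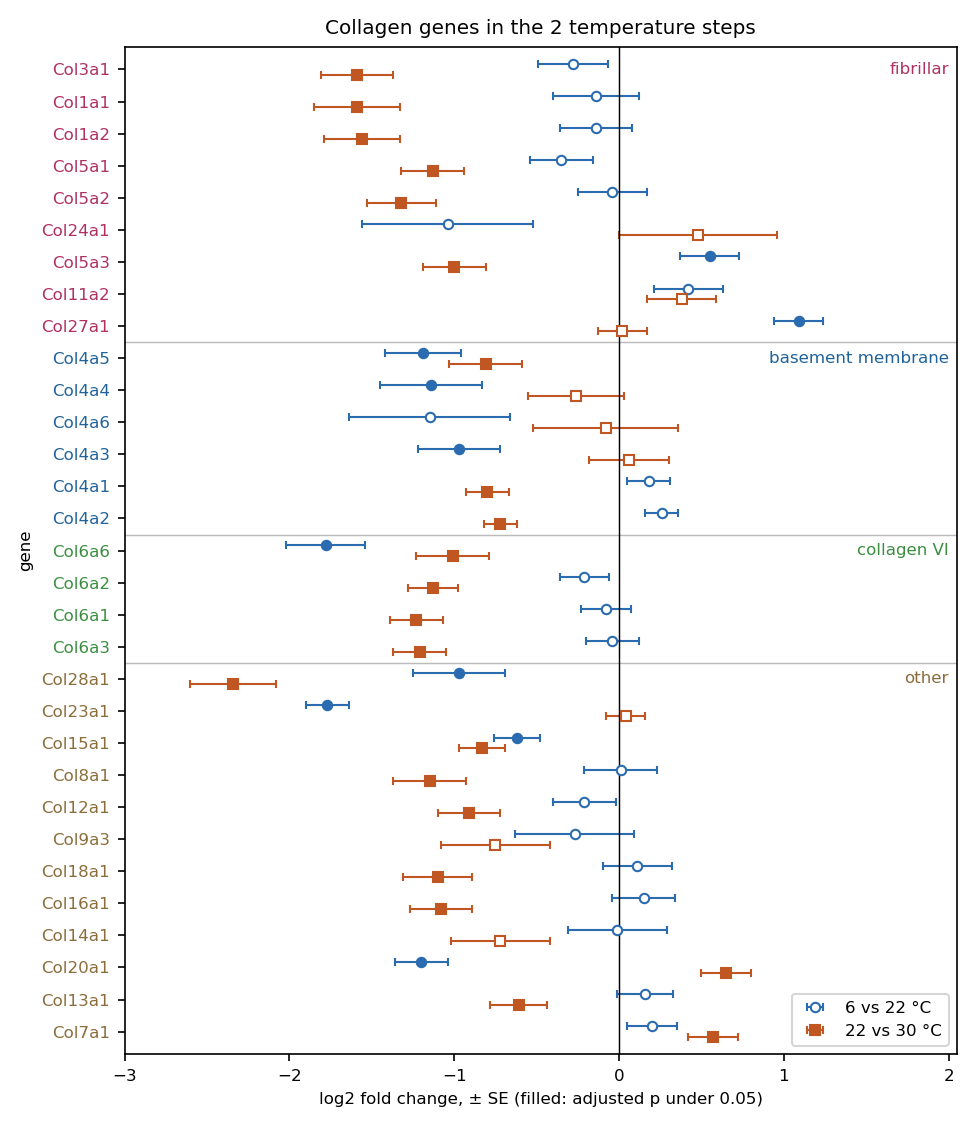
Log2 fold change with SE (horizontal axis) of the 31 tested collagen genes, by group, for 6 against 22 °C (circles) and 22 against 30 °C (squares); filled symbols have an adjusted p under 0.05. Most squares lie left of 0 while most circles lie near it; Col27a1 and Col5a3 have filled circles to the right, and Col20a1 and Col7a1 filled squares to the right.

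Summed over all 44 genes, collagen transcripts took between 0.246% and 0.303% of all counts at 6 °C, 0.226% and 0.336% at 22 °C, and 0.593% and 1.09% at 30 °C. Every 30 °C library was above every other. These are shares of raw counts, without TMM. After TMM the sums were between 2833 and 3220 CPM at 6 °C and 2464 and 3425 CPM at 22 °C. At 30 °C they were between 5273 and 8920 CPM. Mouse B was the highest at 30 °C, followed by mouse A with 0.663% of all counts and 5935 CPM. The make-up of the collagen sum differed as well. Fibrillar genes took between 41.1% and 44.3% of the collagen counts at 6 °C, 39.9% and 46.1% at 22 °C, and 48.2% and 57.7% at 30 °C, and basement membrane genes took between 39.1% and 41.9%, 33.3% and 39.0%, and 23.8% and 32.5% in the same order. The fibrillar share was thus higher and the basement membrane share lower in every 30 °C library than in every library of the other temperatures. Mouse B had the highest fibrillar and the lowest basement membrane share at 30 °C. Mouse 1 came next in both, with 51.7% and 28.2%. Collagen VI took between 11.6% and 12.3% at 6 °C, 12.2% and 13.9% at 22 °C, and 13.2% and 14.4% at 30 °C. These shares of counts grow with transcript length and are compared between temperatures only.

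**Figure D4:**
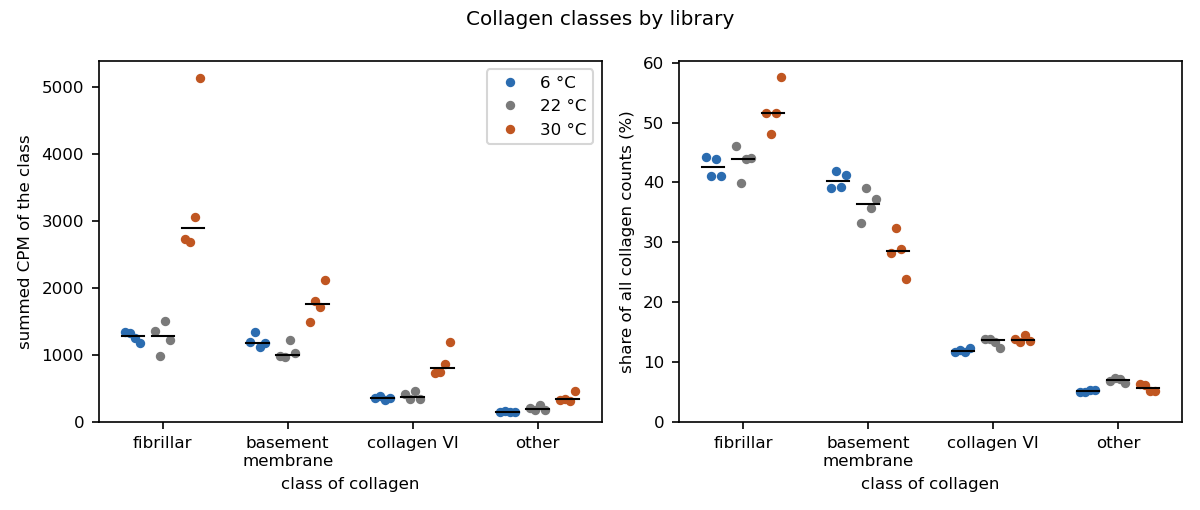
Left, summed CPM of the 4 groups of collagen genes in each library; right, the share of each group in all collagen counts in percent. Points are the 4 libraries at 6, 22 and 30 °C and bars are medians; the fibrillar share is at least 48.2% in every 30 °C library and at most 46.1% in all others.

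Per kilobase of exon (RPKM), the order of the genes differed between temperatures. At 6 °C Col4a1 led with 94.8 ± 8.92 RPKM, followed by Col4a2 with 74.3 ± 5.34, Col3a1 with 47.7 ± 5.32, Col5a3 with 27.3 ± 5.80 and Col6a1 with 26.7 ± 1.90 RPKM (SD, n = 4 each). At 30 °C Col3a1 had 175 ± 62.4 RPKM, Col4a1 145 ± 22.5, Col4a2 103 ± 14.2, Col1a1 68.7 ± 28.3 and Col6a1 66.3 ± 17.1 RPKM. Of the neighbours in the 30 °C order, Col1a1 and Col6a1 differed by less than the SD of each, Col3a1 and Col4a1 by less than the SD of Col3a1 and more than that of Col4a1, and Col4a1 and Col4a2, as well as Col4a2 and Col1a1, by more than the SD of each. At 6 °C, Col5a3 and Col6a1 differed by less than the SD of each, and the other neighbours named by more. In RPKM, Col4a1 and Col4a2 thus stood above Col3a1 at 6 °C, beyond the SD of each, while each of the other 4 type IV chains was at 0.442 RPKM or lower. The lengths join all annotated exons of a gene, 9816 bases for Col3a1 and 6619 for Col4a2, and can exceed the transcripts present. In CPM, Col4a2 (492 ± 35.3) and Col3a1 (468 ± 52.2) differed at 6 °C by less than the SD of each. The order of these 2 genes therefore rests on the lengths used.

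Chains that share a protein or fibril were compared within each library as ratios of counts, 5 ratios in 3 pairs of temperatures, with an exact two-sided permutation test whose smallest p with 4 against 4 mice is 0.0286. With 15 tests, passing the Benjamini-Hochberg adjustment would have needed at least 9 of them at that smallest p, so a few ratios could not have passed in this design whatever their size. In 4 of the 15 the exact p was the smallest possible one (adjusted p 0.107), and none passed. The first of these was the log2 ratio of Col3a1 to Col1a1, 1.78 ± 0.08 at 6 °C and 1.94 ± 0.10 at 22 °C (SD, n = 4 each; exact p 0.0286). The log2 ratio of Col1a1 to Col1a2 was -0.53 ± 0.05 at 6 °C, -0.56 ± 0.14 at 22 °C and -0.51 ± 0.06 at 30 °C (SD, n = 4 each). The log2 ratio of Col4a1 to Col4a2 was 0.52 ± 0.03, 0.59 ± 0.11 and 0.68 ± 0.05 in the same order, a difference of -0.15 at 6 °C against 30 °C with no overlap between libraries (exact p 0.0286, adjusted 0.107). The log2 ratio of Col6a1 to Col6a2 was 0.11 ± 0.04, -0.02 ± 0.04 and 0.07 ± 0.03. It did not overlap between 6 and 22 °C (difference 0.13) or between 22 and 30 °C (difference -0.09), each at an exact p of 0.0286 and an adjusted p of 0.107. For the type I chains the differences in log2 ratio were -0.02 at 6 °C against 30 °C, -0.04 at 22 °C against 30 °C and 0.02 at 6 °C against 22 °C, each smaller than the SD among 22 °C mice.

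The genes that fold, trim, bind and sense collagen were listed by role, and members named are the 3 with the smallest p at 6 °C against 30 °C and the largest change against the median of the list. The folding and modification list holds enzymes and chaperones of the new chain, besides other genes such as Creb3l1, Sec13, Sec23a, Mia3 and Tmem38b. Of this list, 12 of 23 tested (52.2%) were lower and 2 (8.70%) higher at 6 °C than at 30 °C (median log2 fold change -0.25), against 31.5% and 25.3% of all tested genes. Leprel4, an endoplasmic reticulum protein needed for lysine hydroxylation, averaged 4.82 ± 0.538 CPM at 6 °C and 15.1 ± 0.981 CPM at 30 °C (-1.65, SE 0.12, adjusted p 3.1e-07). Creb3l1, a transcription factor of procollagen genes, fell (-1.47, SE 0.15, adjusted p 4.8e-06), as did Crtap, a subunit of the prolyl 3-hydroxylase complex (-0.56, SE 0.07, adjusted p 1.6e-05). P4ha1, the catalytic chain of prolyl 4-hydroxylase, was higher, with 97.0 ± 46.4 CPM at 6 °C and 39.4 ± 4.99 CPM at 30 °C (1.30, SE 0.32, adjusted p 0.00503). Serpinh1, the collagen chaperone HSP47, did not pass (0.02, SE 0.19, adjusted p 0.925). At 22 °C against 30 °C, 11 of the 23 (47.8%) were lower and 0 higher, where 22.8% and 21.8% of all tested genes were. At 6 °C against 22 °C 4 (17.4%) were lower and 0 higher, where 17.4% and 16.9% of all tested genes were, so the share of lower genes was that of all genes.

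Of the genes listed for procollagen trimming and cross-linking, 7 of 12 tested (58.3%) were lower and 1 (8.33%) higher at 6 °C than at 30 °C (median -0.59), against 31.5% and 25.3% of all tested genes. Pcolce, the enhancer of C-propeptide removal, averaged 38.5 ± 4.74 CPM at 6 °C and 87.5 ± 18.1 CPM at 30 °C (-1.18, SE 0.14, adjusted p 2.1e-05), and Adamts2, which removes the N-propeptide, fell too (-1.38, SE 0.18, adjusted p 3.3e-05). Loxl1, a lysyl oxidase best known from elastic fibres, was higher at 6 °C with 62.2 ± 11.7 CPM, against 23.7 ± 3.59 CPM at 22 °C and 20.1 ± 4.07 CPM at 30 °C (1.63, SE 0.17, adjusted p 7.4e-06 against 30 °C; 1.39, SE 0.17, adjusted p 1.2e-04 against 22 °C). At 22 °C against 30 °C, 7 of the 12 (58.3%) were lower and 0 higher, against 22.8% and 21.8% of all tested genes, and at 6 °C against 22 °C 1 was lower and 3 higher, against 17.4% and 16.9%.

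Proteoglycans and glycoproteins that coat fibrils had the lowest median of the 6 lists, -1.23 at 6 °C against 30 °C, with 15 of 17 tested (88.2%) lower and 0 higher, against 31.5% and 25.3% of all tested genes. Ecm2 averaged 12.1 ± 0.936 CPM at 6 °C and 40.03 ± 5.74 CPM at 30 °C (-1.72, SE 0.11, adjusted p 8.1e-08). Dcn (decorin), which binds type I fibrils, averaged 112 ± 11.7 CPM at 6 °C, 233 ± 10.2 CPM at 22 °C and 390.2 ± 80.7 CPM at 30 °C (-1.80, SE 0.13, adjusted p 3.3e-07 at 6 °C against 30 °C). Podn (podocan) averaged 7.11 ± 0.349, 40.8 ± 11.5 and 39.8 ± 3.43 CPM in the same order, with -2.48, SE 0.17, adjusted p 2.5e-07 at 6 °C against 30 °C. The median of this list at 6 °C against 22 °C was -0.48, with 8 (47.1%) lower and 1 higher (Prelp), against 17.4% and 16.9% of all tested genes. It was -0.76 at 22 °C against 30 °C, with 14 (82.4%) lower and 0 higher, against 22.8% and 21.8%.

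Of the basement membrane partners of type IV collagen, 11 of 17 tested (64.7%) were lower and 1 (5.88%) higher at 6 °C than at 30 °C (median -0.49), against 31.5% and 25.3% of all tested genes. Lamb2, a laminin chain, fell (-0.89, SE 0.09, adjusted p 3.2e-06), and Nid2, a nidogen that links laminin to type IV collagen, fell (-1.68, SE 0.17, adjusted p 5.6e-06). Npnt (nephronectin), an integrin ligand of basement membranes, was higher, with 26.6 ± 2.21 CPM at 6 °C, 5.93 ± 1.499 CPM at 22 °C and 1.95 ± 0.271 CPM at 30 °C (3.76, SE 0.18, adjusted p 1.9e-08 at 6 °C against 30 °C). In the comparison of 22 with 30 °C, 10 of the 17 (58.8%) were lower and 1 higher, against 22.8% and 21.8% of all tested genes. At 6 °C against 22 °C 4 (23.5%) were lower and 2 (11.8%) higher, near the 17.4% and 16.9% of all tested genes.

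Of the collagen receptors and uptake genes, 11 of 16 tested (68.8%) were lower and 3 (18.8%) higher at 6 °C than at 30 °C (median -0.68), against 31.5% and 25.3% of all tested genes. Mrc2, the receptor that takes up collagen for breakdown, fell (-1.07, SE 0.13, adjusted p 2.2e-05), and so did Cd93, an endothelial surface protein (-1.05, SE 0.14, adjusted p 3.9e-05). Oscar, a collagen receptor of myeloid cells, was higher but scarce, with 1.89 ± 0.411 CPM at 6 °C and 0.260 ± 0.123 CPM at 30 °C (2.88, SE 0.31, adjusted p 7.0e-06). Counts in the other comparisons were 8 lower and 2 higher at 22 °C against 30 °C, where 22.8% and 21.8% of all tested genes were, and 4 lower and 3 (18.8%) higher at 6 °C against 22 °C, where the shares over all tested genes, 17.4% and 16.9%, were near these. In the TGF-beta axis, a known inducer of collagen genes, 7 of 17 (41.2%) were lower and 5 (29.4%) higher at 6 °C than at 30 °C (median -0.26), near the 31.5% and 25.3% of all tested genes. Tgfb3, a ligand, fell (-1.17, SE 0.17, adjusted p 8.0e-05), as did the co-receptor Tgfbr3 (-0.60, SE 0.12, adjusted p 0.00103). The latent TGF-beta binding proteins Ltbp4 (0.36, SE 0.07, adjusted p 0.00111) and Ltbp3 (0.52, SE 0.12, adjusted p 0.0026) were higher. Of the 17, 3 (17.6%) were lower and 2 (11.8%) higher at 22 °C against 30 °C, and 4 (23.5%) were lower and 2 (11.8%) higher at 6 °C against 22 °C, against 22.8% and 21.8%, and 17.4% and 16.9%, of all tested genes. Comp, Cspg4 and Dpt stand both in one of the 6 lists and in a marker list.

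**Figure D5:**
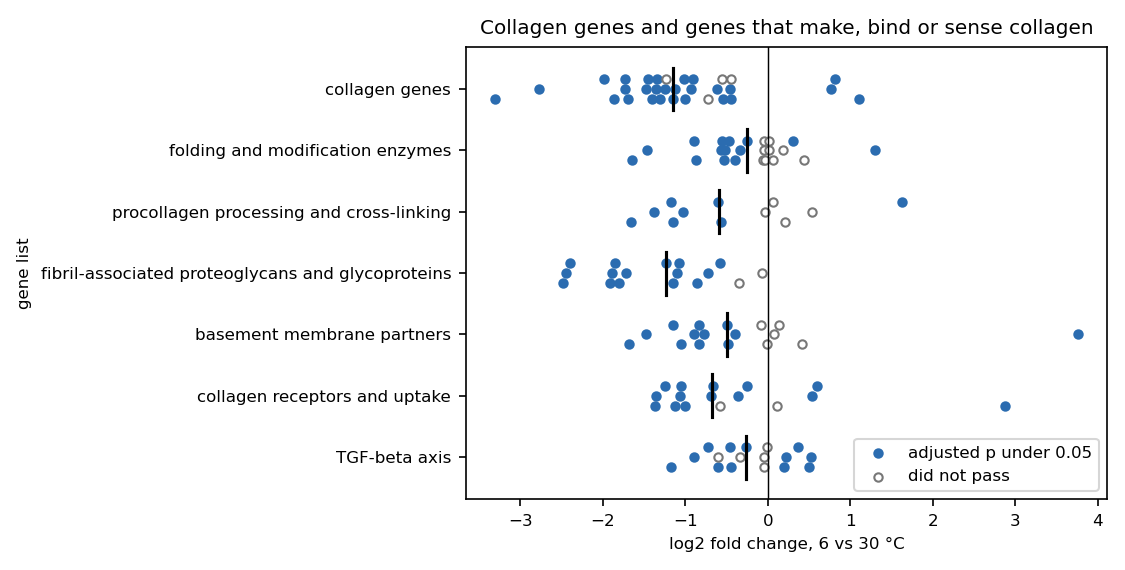
Log2 fold change at 6 °C against 30 °C (horizontal axis) of each tested collagen gene and each tested member of 6 lists of collagen pathway genes; filled points have an adjusted p under 0.05 and vertical bars are medians. The collagen genes and the fibril-associated list have medians below -1; the other lists lie closer to 0, with Npnt and Oscar far to the right.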

How the data were processed

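The values used are the raw read counts per mouse gene that the authors deposited as a single table, not normalised. The submitters' processing notes name the builds GRCm38 and mm10 and the tools FastQC 0.10.1, STAR 2.4.2a and edgeR 3.14.0 but no role for any; which program counted the reads, and with what strand setting, is not given in the sources used here. Total RNA was extracted with Qiazol and cleaned of DNA, per the labels' protocols. Exon lengths and positions came from GENCODE M21 (GRCm38), with a match for 96.6% of identifiers, and promoters from RefSeq (GRCm38.p6).

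Counts were fitted with edgeR 4.0.16 in R 4.3.3: filterByExpr by temperature, TMM, 1 factor of 3 temperatures over 12 libraries, glmQLFit with robust estimation and two-sided glmQLFTest, with Benjamini-Hochberg adjustment across 14870 genes. SE is the log2 fold change over the square root of F. The code was tested on simulated counts. No library was a copy of another (the lowest chi-square divided by its degrees of freedom was 21.6). The mouse numbers are names only: libraries with the same number in different groups had correlations of their deviations between -0.15 and 0.23, over 0.1 in 3 of 8 pairs. For libraries with different numbers the correlations lay between -0.36 and 0.38, over 0.1 in 7 of 24 pairs. P-values weigh the differences between temperatures against the spread between these mice.

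Every collagen gene is named, with full values where the mean reaches 20 CPM or the direction differs from the group; of each pathway list, the 3 smallest p-values and the largest change against the median. Serpinh1, Prelp and the marker genes fall outside that rule and were named after their values were seen. Col4a5, Col6a6, Col23a1 and Col28a1 averaged under 20 CPM and were called only as lower between temperatures. Full values were given for them because of their profiles, after these were seen. The collagen genes and the lists were chosen with earlier results of these data known. The fit was repeated with 3 other scalings (RLE, upper-quartile, total counts), without a filter and with one of 1 CPM in at least 4 libraries, in DESeq2 1.42.0 and in limma voom 3.58.1, on just the 8 libraries compared, with the mouse number as a block, and with each library, or 30 °C mice A and B, left out.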

Additional observations from a re-analysis of the deposited data

Results flagged for a closer look

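Of 107 groups of 4 libraries checked (1 collagen gene at 1 temperature, with at least 10 counts in the highest library), 6 held a library far from the other 3 by Dixon's test of gaps. Chance alone marks about 1 in 20 groups. Col3a1 had 391 CPM in 6 °C mouse 4, against 486 to 501 CPM in the other 6 °C mice, and 2631 CPM in 30 °C mouse B, against 1353 to 1494 CPM in the other 30 °C mice. Col5a1 had 189.7 CPM in 30 °C mouse B, against 109 to 121 CPM in the others. Col15a1 had 70.9 CPM in 6 °C mouse 1, against 75.7 to 76.3 CPM. Col24a1 had 0.568 CPM in 6 °C mouse 1 (14 counts), against 0.134 to 0.157 CPM. Col9a2, which was not tested, had 0.625 CPM in 22 °C mouse 3 (53 counts), the deepest library, against 0 to 0.0880 CPM.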

How the results depend on the processing

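No difference that was called, in the reported fit or under an alternative, reversed its direction. The counts of lower genes stayed within 1.5 times the reported ones in all settings. Leaving out 1 library gave between 22 and 27 lower at 6 °C against 30 °C, 20 and 22 at 22 °C against 30 °C, and 7 and 9 at 6 °C against 22 °C. Genes were filtered anew when libraries were left out, so such counts can include collagens that the reported fit did not test. The 2 genes higher at 22 °C against 30 °C became 0 with scaling by total counts alone, 4 with no filter (Col10a1 and Col11a1 were added) and 1 with the mouse number as a block. The 2 higher at 6 °C against 22 °C became 1 with total-count scaling, with no filter and with the block, and between 1 and 3 when 1 library was left out. The 17 differences of the steps became 10 with the block and between 8 and 18 when 1 library was left out. Over all 15171 genes in the fit with the block, 1278 differences of the steps were positive and 1190 negative. The causes were not tested. The block was fitted to the 10 libraries matched to a numbered mouse, whose numbers the labels do not tie across groups. This fit lost 12 calls of single genes and moved no other count by over 1.5 times. Leaving out 30 °C mice A and B with no block lost 5 of these, those of Col11a2, Col13a1 (at 6 and 22 °C), Col20a1 and Col9a3. The others were Col16a1 (at 6 and 22 °C) and Col4a2 (at 6 °C) against 30 °C, Col4a5, Col6a6 and Col7a1 at 22 °C against 30 °C, and Col5a3 at 6 °C against 22 °C. DESeq2 and limma voom gave 24 and 24 lower collagens at 6 °C against 30 °C. Genes with few counts, such as Col4a6, Col9a3 and Col24a1, had SEs of 0.34 to 0.53 on the log2 scale at 6 °C against 30 °C, which limits what their comparisons can show.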
